A study of Mus musculus with 2 samples.

Results

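This account describes 288 protein-coding genes whose promoters are rich in CpG and carried no peak of open chromatin in either of 2 samples of mouse calf muscle. A gene was taken when the 2 kb around its 5′-most start site held at least 0.6 of the CpG dinucleotides expected from its base composition, and when neither sample had a peak within 1 kb of any of its start sites. The genes were thus selected on the promoter peaks of these same samples, so their lack of such peaks is a description and supports nothing. Of 21911 protein-coding genes, 7513 were CpG-rich by this measure, and the 288 are 3.83% of them (exact 95% binomial interval 3.41 to 4.29, counting error only). Such promoters are called closed below, which means that no peak was called there and not that no cut by the enzyme occurred.

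DNase-seq reads open chromatin from where the enzyme DNase I cuts the DNA of isolated nuclei. It was run on the gastrocnemius of male adult mice, aged 18 to 20 months, of B6CASTF1/J, an F1 hybrid that carries 1 genome of the laboratory strain C57BL/6J and 1 of the strain CAST/EiJ. There were 2 samples in 1 group, biological replicates 1 and 2. Their labels name 1 donor and 2 separate biosamples, and it is not known if 1 animal gave both. The design has no control, second age or other tissue, and no comparison was tested. The lists held 131398 peaks in replicate 1 and 91567 in replicate 2, with a median signal of 0.599 and 0.760 in the authors' unit, and sequencing depth is unknown. All 10 skeletal muscle markers checked had a promoter peak in replicate 1 and 9 in replicate 2, the exception being Myh4, a fast myosin heavy chain.

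As background, most CpG-rich promoters belong to CpG islands, stretches that escape DNA methylation in the germ line and so keep their CpGs. Many serve genes that every cell uses and are open everywhere. Others serve regulators of development, where Polycomb complexes can hold the unmethylated island silent, and a smaller set, including genes of germ cells and imprinted genes, can be methylated in body tissues. Neither methylation nor a histone mark was measured in these samples, so these states cannot be assigned to any gene here.

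The sequences below show what kind of DNA was closed. Each is the 250 bases upstream of a gene's 5′-most start site in mm10, read 5′ to 3′ on the gene's strand, with every CpG in capitals. Zdbf2, an imprinted gene, had the highest CpG ratio among the 288 genes with a mostly unrepeated window, and 26 CpGs fall in this stretch (chr1:63273015-63273264, plus strand). Gabbr2, a subunit of the metabotropic GABA receptor, had the most body peaks shared by both samples among the closed receptors of the nervous system, and 40 CpGs (chr4:46991874-46992123, minus strand). Tdrd5, a tudor-domain protein of the germ line, led the germ cell genes in the same way and has 18 (chr1:156303665-156303914, minus strand).
Zdbf2: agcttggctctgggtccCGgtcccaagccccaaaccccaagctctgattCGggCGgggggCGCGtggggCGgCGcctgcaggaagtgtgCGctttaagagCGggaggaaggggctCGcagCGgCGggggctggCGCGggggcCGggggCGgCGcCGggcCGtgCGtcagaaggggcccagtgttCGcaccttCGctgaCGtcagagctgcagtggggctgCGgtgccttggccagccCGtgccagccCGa
Gabbr2: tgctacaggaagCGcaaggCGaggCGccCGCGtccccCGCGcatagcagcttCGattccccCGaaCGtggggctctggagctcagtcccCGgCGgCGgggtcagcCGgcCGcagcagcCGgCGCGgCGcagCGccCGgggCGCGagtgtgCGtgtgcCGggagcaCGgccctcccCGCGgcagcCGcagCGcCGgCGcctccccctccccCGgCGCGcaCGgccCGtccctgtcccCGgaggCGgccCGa
Tdrd5: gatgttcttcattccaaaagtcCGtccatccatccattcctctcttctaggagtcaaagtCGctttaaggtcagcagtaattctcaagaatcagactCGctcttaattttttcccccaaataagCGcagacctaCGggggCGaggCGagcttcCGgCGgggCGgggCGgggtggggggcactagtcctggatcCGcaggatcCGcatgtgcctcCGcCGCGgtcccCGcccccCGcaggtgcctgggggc
For comparison, these are the upstream sequences of open genes with nearly the same CpG ratio in the 2 kb window as a closed one. Paip1, whose product binds the poly(A)-binding protein, matches Zdbf2 with a ratio of 0.957 in both, and its strongest promoter peak reached 1.51 (replicate 1) and 1.38 (replicate 2) in signal (chr13:119428351-119428600, plus strand). 1700037H04Rik matches Pax7, a closed homeobox gene described below, with a ratio of 0.607 in both, and had signals of 6.43 and 6.07 (chr2:131160082-131160331, minus strand).
Paip1: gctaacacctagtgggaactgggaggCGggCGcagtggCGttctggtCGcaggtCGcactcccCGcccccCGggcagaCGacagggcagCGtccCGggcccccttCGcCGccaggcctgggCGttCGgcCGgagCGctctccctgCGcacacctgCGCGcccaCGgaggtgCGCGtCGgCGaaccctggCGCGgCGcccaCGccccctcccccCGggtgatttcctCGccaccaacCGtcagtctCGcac
1700037H04Rik: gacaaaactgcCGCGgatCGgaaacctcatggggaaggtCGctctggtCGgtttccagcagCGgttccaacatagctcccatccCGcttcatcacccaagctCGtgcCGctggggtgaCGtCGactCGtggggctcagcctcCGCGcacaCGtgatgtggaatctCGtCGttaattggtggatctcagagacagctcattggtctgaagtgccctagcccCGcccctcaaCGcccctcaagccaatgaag
Both open genes were chosen for a CpG ratio that matches a closed gene, so their similar CpG content is no finding. These stretches hold 32 CpGs in Paip1 and 19 in 1700037H04Rik. Over the whole 2 kb window, closed and open CpG-rich genes alike had a ratio of at least 0.6 by choice. The median CpG ratio was 0.687 in the closed genes (lowest 0.6001, highest 0.960) and 0.720 in the 7058 CpG-rich genes open in both samples. The longest CpG-island-like stretch at the start site had a median of 1235 bp in the closed and 1180 bp in the open genes.

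The share of closed promoters was lower at high CpG ratios and highest at high GC content. Of genes with a ratio from 0.6 to 0.7, 161 of 3243 were closed (4.96%), and of those at 0.9 or more, 11 of 508 (2.17%). By GC content, 3.20% of the windows under 50% GC were closed, 2.26% of those from 50 to 55%, 3.04% from 55 to 60%, 6.48% from 60 to 65% and 7.19% of those over 65%. At the threshold of 0.6, with no peak in either sample, Elfn2 at 0.6001, Tunar at 0.602 and Ryr3 at 0.604 are just inside it, and Gm4881 at 0.5998, Gm37013 at 0.5997 and Syt16 at 0.5993 just outside. Neurog2, Vstm2l and Hist1h2ab had their nearest peaks just beyond 1 kb, with smallest distances from a start site of 1026, 1033 and 1035 bp. Rbmxl2 (973 bp), Rtn4rl2 (970 bp) and Wnt9b (963 bp) had theirs just within it, each in 1 sample.

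Single sites past the rate of the peak list were sparse as well. That list also rests on a rate of 0.05, so weaker signals were not measured, and few such bases follow in part from the choice of genes. The files also list single bases past a false discovery rate of 0.05, and the median closed gene had none within 1 kb of its start sites in either sample. In each replicate 22 of the 288 genes had at least 1 such base, and 4 genes had them in both. The highest values were those of Oxtr, the oxytocin receptor, with 5.66% of its promoter bases in replicate 1 and 5.58% in replicate 2, where a peak begins 1038 bp from the start site in both samples. Vstm2l followed among the genes seen in both, with 2.55% and 2.15%. Open CpG-rich genes had medians of 44.7% and 40.1%. No closed promoter held a footprint, the short protected stretch that a bound protein can leave, while 7019 and 7015 of the 7058 open ones did. These values describe the genes, since sites and footprints come from the same reads as the peaks.

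Between the closed and the open genes stood 167 that had a promoter peak in 1 sample alone. Those peaks were weak. The strongest promoter peak of the 110 genes open in replicate 1 alone had a median signal of 0.315 (0.122 to 0.959), and of the 57 open in replicate 2 alone 0.391 (0.207 to 0.716), below the median of all peaks in each list. Genes open in both samples had medians of 4.23 and 4.46. In replicate 1, 345 CpG-rich genes were closed (4.59%), and in replicate 2, with its shorter list, 398 (5.30%).

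Regulators that lay out the embryo made up the largest group of named families. The 7 lists of patterning factors held 202 CpG-rich genes, of which 48 were closed (23.8%). In the list of homeobox factors outside the HOX clusters 23 of 78 were closed (29.5%). They include Cdx1 and Cdx2, which pattern the gut and the posterior body, Dlx6, Emx1 and Vax1 of the forebrain, the POU factors Pou3f2, Pou3f3 and Pou4f2, Irx1 and Irx4, Lhx5, Tlx1 and Pax7. Of the cell fate factors with a basic helix-loop-helix domain 7 of 25 were closed: Atoh1, Neurog1, Neurog2, Olig2, Bhlhe22 and Bhlhe23, which direct neural fates, and Ptf1a, which directs pancreatic and neural ones. Of forkhead factors 6 of 34 were closed, among them Foxa2, a factor of endoderm and floor plate. In the zinc finger fate list it was 6 of 27 (Bnc1, Fezf1, Ovol1, Ovol2, Prdm12 and Sall3), among T-box factors 2 of 6 (T, the mesoderm factor brachyury, and Tbx21, a factor of T helper cells), and among SOX factors 2 of 13 (Sox3 and Sox14).

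Of the HOX genes, which set position along the body axis, 2 of 19 with CpG-rich promoters were closed (10.5%), Hoxb9 and Hoxd13, and 12 were open in both samples. With replicate 1 left out 4 of the 19 were closed and with replicate 2 left out 5, so this count rests on both lists. Other homeobox genes gave 30 and 31 of 78 in the same way, and the difference between the lists was not tested.

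Genes of the nervous system were the next group. Across 10 lists 27 of 145 CpG-rich genes were closed (18.6%). Of glutamate receptors it was 4 of 10, among them Grik1, Grik3 and Grm6. Of GABA and glycine receptors it was 2 of 4, Gabbr2 and Gabra5. Of synaptic adhesion genes 8 of 20 were closed (40.0%), and 3 of 20 with no peak within 2500 bp. They include Lingo2, Lrfn1, Lrfn5, Lrrc4, Lrrc4b and Slitrk1, which encode leucine-rich repeat proteins of the synapse. Receptors for amines and peptides gave 4 of 16, with Drd2, a dopamine receptor, Oprd1, the delta opioid receptor, Oxtr and Npbwr1. Potassium channels gave 4 of 26 and sodium, calcium and HCN channels 2 of 18. Genes of synaptic vesicles and release gave 1 of 25, Slc32a1, the vesicular transporter for GABA and glycine, but 5 of 25 without replicate 1 and 2 of 25 without replicate 2. Axon guidance genes, whose list belongs to the signals of development, gave 1 of 38, Epha8, an ephrin receptor, and 3 and 2 of 38 without replicate 1 and without replicate 2. Counts in the small lists are imprecise, as the intervals in the plot of closed shares by list show.

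**Figure D1:**
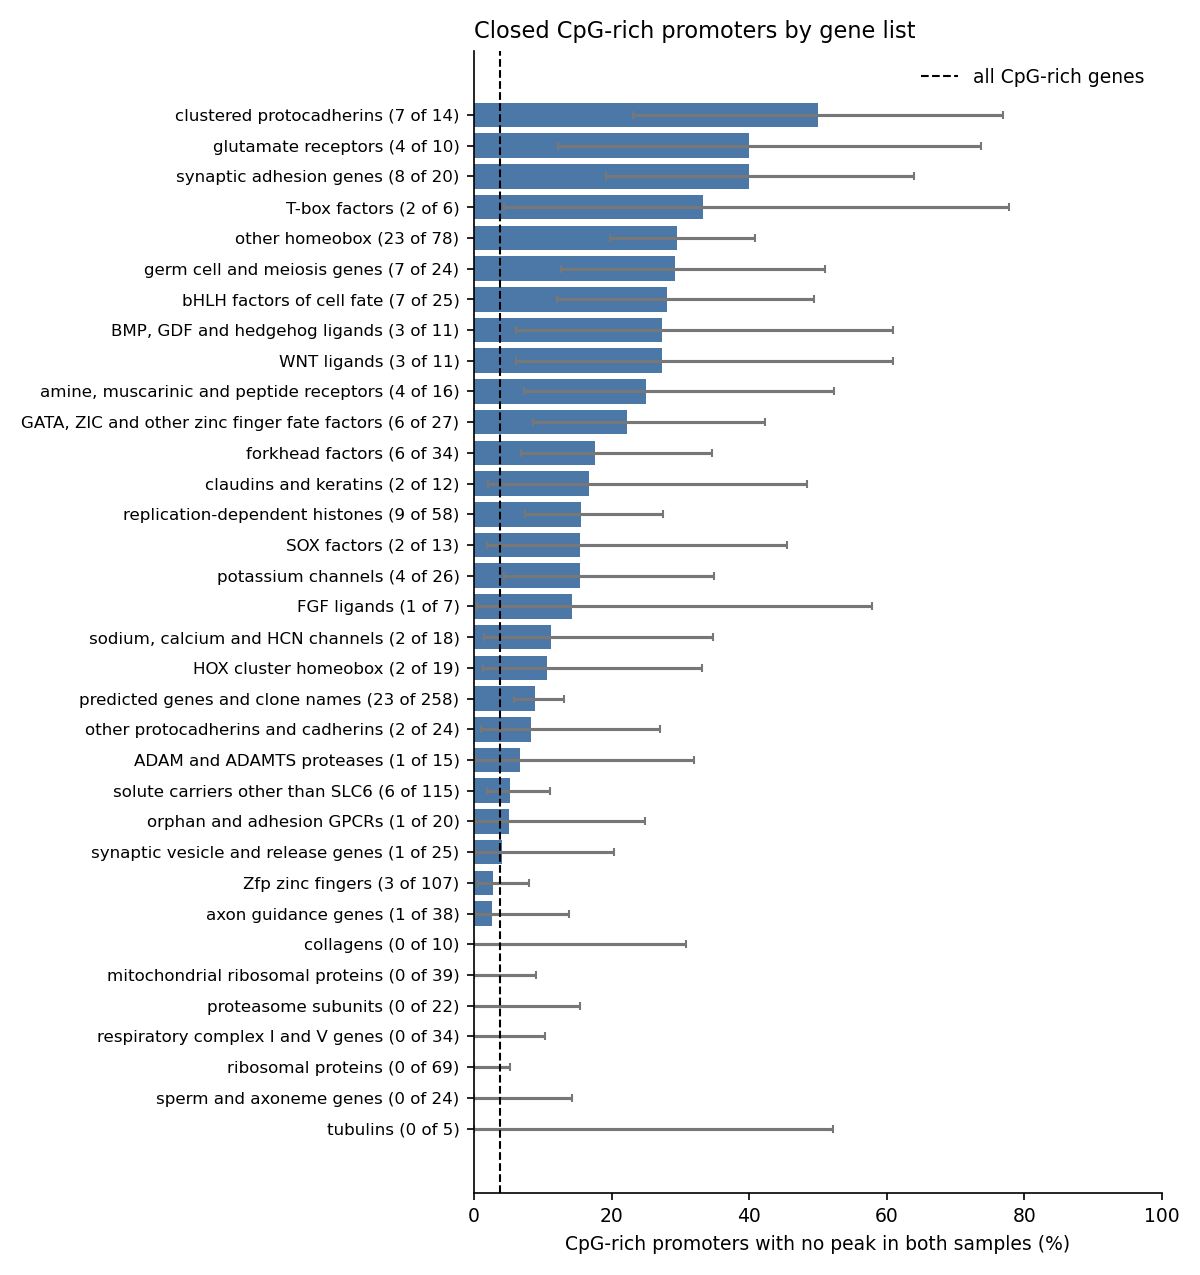
Share of CpG-rich promoters with no peak in both samples (x axis, %) for each gene list with at least 5 CpG-rich genes, with the closed and total number in brackets. Grey lines are exact 95% binomial intervals for counting error, and the dashed line is the share over all CpG-rich genes (3.83%). Most developmental and nervous system lists lie to the right of the line, synaptic vesicle genes (1 of 25) lie next to it, axon guidance genes (1 of 38) lie to its left, and the ribosomal, proteasome and respiratory lists are at 0.

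Secreted signals of development were closed in part. Of WNT ligands 3 of 11 were closed (Wnt3, Wnt3a and Wnt6), of BMP, GDF and hedgehog ligands also 3 of 11 (Bmp8b, Gdf7 and Ihh, the Indian hedgehog ligand of growing bone), and of FGF ligands 1 of 7 (Fgf8). Among clustered protocadherins, cell surface proteins that give neurons their identity, 7 of 14 were closed. Their records on chromosome 18 overlap, so they share body peaks and are not independent genes.

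Germ cell genes were counted in separate lists. Of the list of germ cell and meiosis genes 7 of 24 CpG-rich members were closed (29.2%): Ddx4, the germ cell helicase vasa, Mael, Tdrd5 and Tdrd6 of the pathway that silences transposons with small RNAs or of its granules, Sycp1 of the synaptonemal complex, D1Pas1, a testis helicase, and Taf7l, a germ cell form of a general transcription factor subunit. Of the list of sperm and axoneme genes 0 of 24 were closed, and all 24 were open in both samples. Of 107 CpG-rich zinc finger genes named Zfp 3 were closed (2.80%), Zfp541, Zfp618 and Zfp804a.

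Genes that every cell uses stood at the other end. None of 164 CpG-rich genes of the ribosome, the mitochondrial ribosome, the proteasome and respiratory complexes I and V was closed in both samples, and 1 gene, of the ribosomal list, was closed in replicate 1. Collagens (0 of 10) and tubulins (0 of 5) had none either. In all, 25 of the 34 lists with at least 5 CpG-rich genes had a closed share above the 3.83% of all CpG-rich genes. The lists cover 142 of the 288 genes, and 146 belong to none.

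The counts by family depend on the peak list of each sample and on the window. A gene needs only 1 list without a peak when a replicate is left out, so counts can only rise. Patterning factors then gave 70 of 202 without replicate 1 and 62 without replicate 2, nervous system genes 45 and 30 of 145, and signals of development 14 and 10 of 67. Without replicate 1 the counts of several short lists grew by over 1.5 times. WNT ligands and BMP, GDF and hedgehog ligands went from 3 to 5 each, SOX factors from 2 to 4, forkhead factors from 6 to 10, the zinc finger fate list from 6 to 10, potassium channels from 4 to 7, and sodium, calcium and HCN channels from 2 to 5. FGF ligands went from 1 to 2 without replicate 2. With a window of 2500 bp the patterning count was 37, that of nervous system genes 15 and that of histones 5. In the same window forkhead factors gave 3, potassium channels 2, T-box factors 1 and sodium, calcium and HCN channels 0.

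Part of the 288 genes lies in sequence that the genome holds more than once. In 26 of them over 50% of the 31-base words in the 2 kb window occur again elsewhere in mm10, against 31 of the 7058 open genes (9.03% and 0.439%). Of windows with 90% or more repeated words 21 of 32 were closed (65.6%), and of those under 10% 245 of 7007 (3.50%). The repeated genes include 6 replication-dependent histone genes, the Entpd4 and Entpd4b pair, Oxct2a and Oxct2b, Slc25a37, Nudt11 and Zxdb on the X chromosome, and several predicted genes. For histones the split is plain in the counts, with 6 closed of 10 genes in repeated windows and 3 closed of 48 in the others. How reads that map to several places were handled is not given in the sources used here, and the part of repeated sequence in these absences was not tested. The patterning, signalling, neuronal, adhesion and germ cell groups had no gene with a window over 50% repeated.

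**Figure D2:**
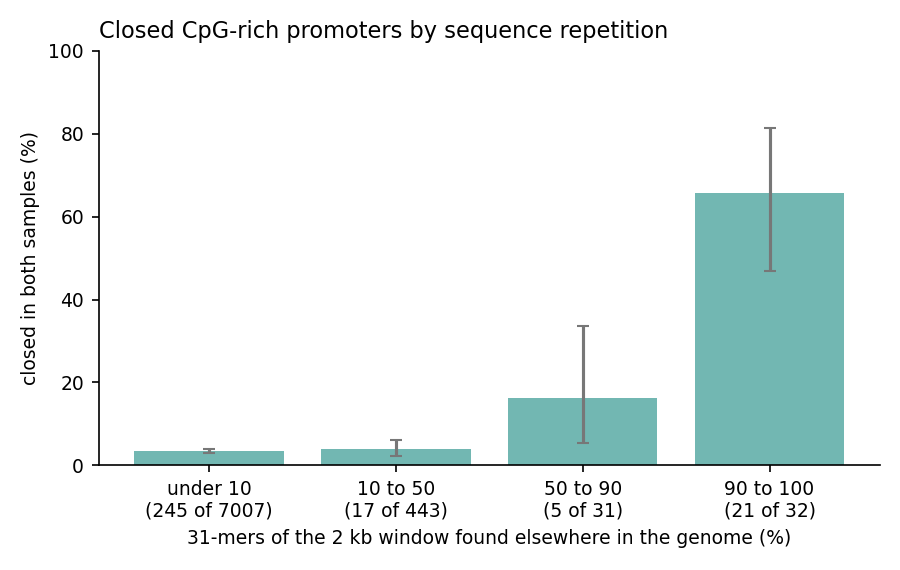
Share of CpG-rich promoters closed in both samples (y axis, %) by the share of 31-base words in the 2 kb window that occur elsewhere in the genome (x axis), with the closed and total number in brackets. Lines are exact 95% binomial intervals for counting error. The most repeated windows stand at 65.6% and the least repeated at 3.50%.

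Short motifs that many CpG-rich promoters share were scarcer in the closed ones for several of those searched. The search covered the 250 bases before and 50 after the 5′-most start site on both strands. The ETS site CCGGAAG, read by a large family of activators, was in 11 of 288 closed promoters (3.82%) and 1319 of 7058 open ones (18.7%), and in 10.97% of all genes. The YY1 site AAGATGGCG was in 0.347% and 3.37%, the NRF1 palindrome in 0.347% and 2.59%, and the CRE TGACGTCA in 1.04% and 3.91%. All genes had 1.72%, 1.22% and 2.46% for these 3 motifs. The counts behind the closed shares are small, with 1 gene for YY1 (Oxct2b), 1 for NRF1 (Nnat, an imprinted gene) and 3 for CRE (Mterf1b, Nr2e1 and Zdbf2).

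Other motifs were spread more evenly. The SP/KLF box GGGCGG was in 60.8% of closed and 73.0% of open CpG-rich promoters, against 43.8% of all genes. The CCAAT box was in 34.4% and 37.5% (all genes 39.0%), the E-box CACGTG in 8.33% and 11.1% (7.71%), and the E2F site TTCCCGCC in 4.51% and 5.38% (2.97%). The TATA box TATAAA went the other way, with 9.72% of closed and 5.77% of open CpG-rich promoters, against 12.6% of all genes. RE1, the element read by the repressor REST, was searched over the whole 2 kb with its core letters and found at 2 closed genes, Bex2 and Drd2 (0.694%), against 0.198% of open and 0.246% of all genes. A match is a string of letters and not a bound site, and promoters are not replicates, so no test was made. The closed genes with an ETS site were Dscam, Gm3417, Gm3435, Gprin1, Mterf1b, Papolb, Pou3f3, Reln, Sfi1, Spint1 and Tdrd5. Of the sequences printed above, Tdrd5 therefore carries it in its window, and Zdbf2 and Gabbr2 do not.

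**Figure D3:**
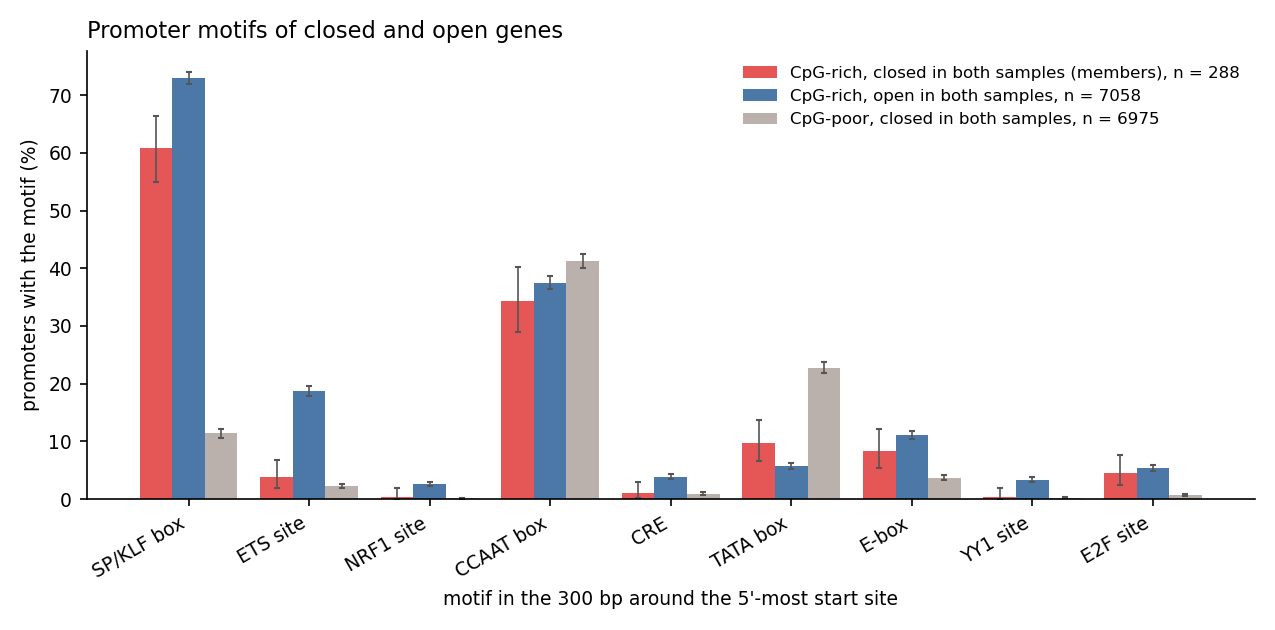
Share of promoters (y axis, %) that hold each motif (x axis) in the 300 bp window, for the 288 closed CpG-rich genes (red), the 7058 open CpG-rich genes (blue) and the 6975 closed CpG-poor genes (grey). Lines are exact 95% binomial intervals for counting error. The ETS site stands at 3.82%, 18.7% and 2.22% in that order.

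The next open region lay several kb away in most cases. From the 5′-most start site to the nearest peak the median distance was 9505 bp in replicate 1 (lowest 1033, highest 661825) and 15367 bp in replicate 2 (lowest 1026, highest 336124). In 143 genes in replicate 1 and 176 in replicate 2 the distance was over 10 kb. CpG-poor closed genes lay still farther from a peak, with medians of 20364 and 29728 bp. In replicate 1 the nearest peak to a closed CpG-rich gene lay inside the gene's own record for 83 genes and at the start site of another coding gene for 41. In replicate 2 these counts were 68 and 50. For most genes it lay elsewhere, 164 in replicate 1 (56.9%) and 170 in replicate 2 (59.0%). The same split is not given for other groups of genes. The 5′-most start sites farthest from a peak, by the nearer of the 2 samples, include that of Ctnnd2, a catenin of neurons, at 568245 and 254901 bp. Others are those of Irs4, an insulin receptor substrate, at 249823 and 249803 bp, Pex5l at 203027 and 250542 bp, and Mdga2 at 226069 and 191879 bp. Other start sites of a gene can lie nearer. Over all start sites the smallest distances were 283163 and 23142 bp for Ctnnd2, and 10235 and 186998 bp for Mdga2.

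Many of these genes held open chromatin inside their bodies. A body peak overlaps the gene record and lies more than 1 kb from all the gene's own start sites, so the rule that chose the genes did not use it. In replicate 1, 148 of the 288 genes had a body peak (51.4%), and in replicate 2, 131 had one (45.5%). Both samples showed one in 120 genes (41.7%, interval 35.9 to 47.6), and 129 genes had none in either. Among all protein-coding genes 40.9% had one in both, so the share of the closed CpG-rich genes is near the background. It was 54.7% in open CpG-rich genes (interval 53.6 to 55.9) and 16.5% in closed CpG-poor ones (15.6 to 17.4). In a bulk tissue, fewer cells of a type with an open site and less opening per cell cannot be told apart.

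The share rose with the length of the record, and closed genes had a median record of 18730 bp against 30632 bp in open ones. Within each class of length the closed genes had the lower share. In records under 5 kb it was 9.21% against 14.7% in open CpG-rich genes, from 5 to 20 kb 21 of 70 genes against 33.0%, from 20 to 100 kb 53.8% against 62.1%, and over 100 kb 78.1% against 93.4%. Closed CpG-poor genes had 2.97%, 12.8%, 34.2% and 69.2% in the same classes.

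The number of body peaks per length was lower in the closed than in the open CpG-rich genes at every record length. Under 5 kb they had 0.565 body peaks per 10 kb in replicate 1 and 0.411 in replicate 2, and open CpG-rich genes 1.10 and 1.06. Over 100 kb, 64 closed genes had 0.190 and 0.122, open CpG-rich genes 0.634 and 0.375, and closed CpG-poor genes 0.206 and 0.114. From 5 to 20 kb the closed CpG-rich genes had 0.733 and 0.471 and the open ones 0.759 and 0.604. From 20 to 100 kb the closed CpG-rich genes had 0.476 and 0.334. Closed CpG-poor genes had fewer in the shorter classes. Their values were 0.224 and 0.182 under 5 kb, 0.299 and 0.224 from 5 to 20 kb, and 0.317 and 0.207 from 20 to 100 kb. The order of closed below open CpG-rich genes was the same in both samples in all 4 classes.

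**Figure D4:**
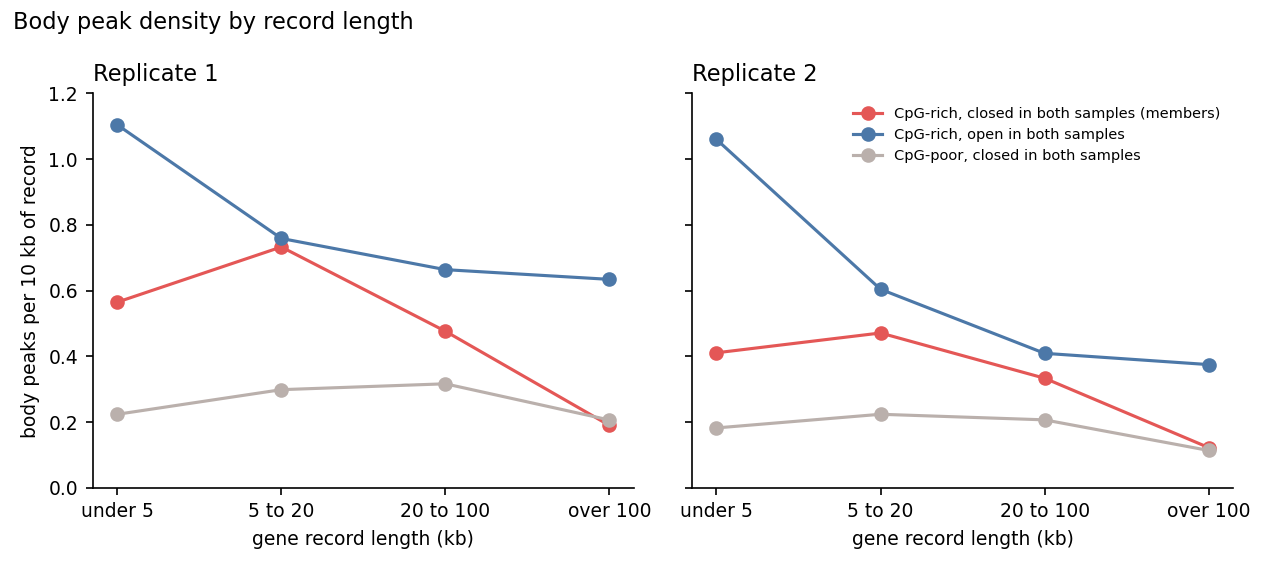
Body peaks per 10 kb of gene record (y axis) by record length (x axis) in replicate 1 (left) and replicate 2 (right), for closed CpG-rich genes (red), open CpG-rich genes (blue) and closed CpG-poor genes (grey). Points are totals over all genes of a class with no error bar. In the longest records the red points lie near the grey ones, at 0.190 and 0.122, and in the shorter classes they lie above them.

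The body peaks of closed CpG-rich genes were weak. There were 691 different ones in replicate 1 and 466 in replicate 2, with a median signal at percentile 28.1 and 28.8 of all peaks of the sample, against 48.7 and 45.8 for the body peaks of open CpG-rich genes. Of them 48.8% and 71.7% overlapped a peak of the other sample, compared with 51.9% and 84.6% in open genes. A footprint lay in 78.4% and 76.4% of them, against 85.9% and 83.4% in open genes. An exon was overlapped by 20.4% and 19.3% of them, against 15.7% and 18.8%. A CpG ratio of 0.6 or more was found in 11.9% and 13.7% of them, and in 6.14% and 8.14% of the body peaks of open genes.

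Motifs were counted in the shared body peaks. Leaving out peaks at another coding gene's start site, the myogenic E-box CAGCTG was in 77 of 323 such peaks of replicate 1 (23.8%) and 66 of 319 of replicate 2 (20.7%), against 26.3% and 23.5% for open CpG-rich genes and 26.0% and 23.5% for all genes. The AP-1 site TGACTCA was in 6.19% and 6.27%, against 8.54% and 7.52% (all genes 8.65% and 7.59%). The CTCF core, a match to the factor that anchors chromatin loops, was in 15.8% and 16.6%, against 11.5% and 11% (all genes 12.8% and 12.3%). Without the chromosome that holds the protocadherin clusters it was 15.97% and 16.5%.

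The share of genes with a body peak followed record length in some families and not in others. Over all protein-coding genes, of any length, 40.9% had one in both samples. Of the 48 patterning factors, whose records have a median of 4795 bp, 34 had no body peak in either sample and 8 had one in both. All 9 histone genes had none. Of the 27 nervous system genes, with a median record of 45252 bp, 12 had one in both samples and 6 none. All 9 protocadherin and cadherin genes had one in both, but 3 did once peaks at the start sites of other coding genes were left out, and the 6 Pcdha genes were not among these. The Pcdha records overlap and share their body peaks. All 3 closed WNT ligands had a body peak in both samples. The 7 germ cell genes had a median record of 37547 bp, but 1 of them had a body peak in both samples and 4 had none. Per 10 kb of record, patterning factors had 0.664 body peaks in replicate 1 and 0.435 in replicate 2, protocadherins and cadherins 0.365 and 0.186, and nervous system genes 0.154 and 0.0965. All protein-coding genes had 0.545 and 0.342.

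Among the patterning factors Pax7, the homeobox factor of muscle stem (satellite) cells, had the most. It held 9 body peaks in replicate 1 and 6 in replicate 2 (chr4:139737062-139833528), and the 6 shared ones were low to middling, with signals over all its body peaks from 0.244 to 0.736 in replicate 1 and 0.358 to 0.648 in replicate 2. Gbx1, a homeobox factor of the midbrain-hindbrain region and spinal cord, had 2 in each sample, both shared. Tbx21 had 3 and 2, Prdm12 3 and 1, and Neurog2 1 in each sample. Ihh, with a record of 6358 bp, had 2 in each, and Wnt6 had 2 and 3. The strongest Wnt6 peak, with signals of 2.82 and 2.42 (chr1:74773181-74773380 in replicate 1), lay above the median of all peaks in each list.

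The genes with the most shared body peaks had long records. Gabbr2 had 20 body peaks in replicate 1 and 13 in replicate 2 over 329569 bp, of which 13 of the former were shared. Dlgap2, a scaffold protein of the synapse, had 27 and 14 over 751816 bp. Rapgef4, an exchange factor that responds to cyclic AMP, had 17 and 14 over 276235 bp, and 15 of the 17 were shared. Megf11 had 23 and 13, Megf6 13 and 11 and Rfx4, a factor of brain and testis, 14 and 9. Some long genes had none, as Drd2 (67551 bp), Ddx4 (54143 bp) and Elfn2 (51441 bp) show.

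Among records of 10 kb or more, the gene with the most shared body peaks per length was Sfi1, whose product acts at centrosomes (chr11:3131850-3193463). It held 28 body peaks in replicate 1 and 25 in replicate 2 within 61614 bp, and 23 of the 28 overlapped a peak of replicate 2. The shared ones had a median signal of 1.17 and 1.71. Peaks with over 50% repeated words in the reference numbered 3 and 2, and the median share was 0.526% and 0. Words were counted within mm10, so copies that this reference lacks would not be seen. Its promoter had a CpG ratio of 0.607, its nearest peak lay 3778 bp away in both samples, and no promoter base passed the rate of 0.05.

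**Figure D5:**
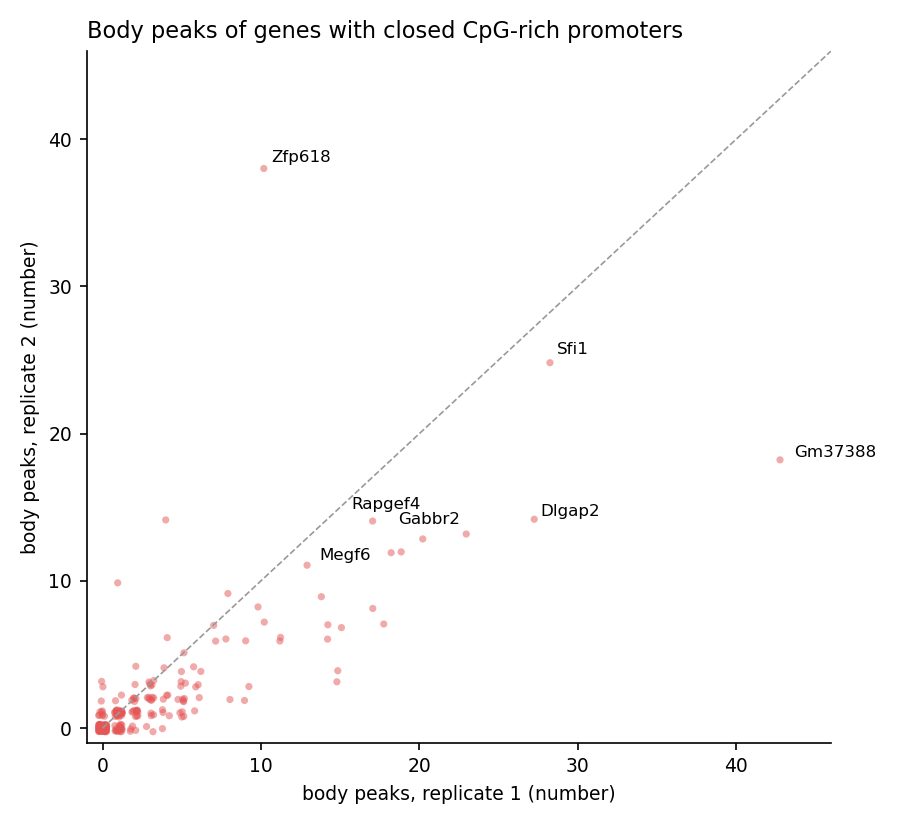
Number of body peaks in replicate 1 (x axis) and replicate 2 (y axis) for each of the 288 genes, with points shifted slightly at random so that equal values can be seen and a dashed line where both numbers are equal. Most genes have few. Sfi1 lies at 28 and 25, Gm37388, which spans the protocadherin clusters, at 43 and 18, and Zfp618 at 10 and 38.

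A few body peaks were strong. Igf2bp3, an RNA-binding protein of the fetus, had an intronic peak whose signal was 3.94 in the first and 3.69 in the second replicate, at percentiles 94.9 and 91.7 of all peaks, at the same position in both samples (chr6:49097041-49097280). Wwc1, a protein of the Hippo pathway, had one of 3.94 and 4.38 near the 3′ end of its record (chr11:35838421-35838600). Rapgef4 had one of 2.71 and 3.02, Cpne5 of 2.56 and 2.996 and Gabbr2 of 2.55 and 1.97 (chr4:46814361-46814560 in replicate 1). The strongest in any of the 288 records, in AC109138.7 with 9.31 and 9.84 and in Ccr9, a chemokine receptor, with 6.73 and 6.13, lie at the start of another coding gene. The strongest in the protocadherin gene Pcdhga10 had 6.25 and 5.92. Of the body peaks of Pcdhga10, 8 of 18 in replicate 1 and 6 of 12 in replicate 2 lay away from the start sites of other coding genes. It is not given here if its strongest peak is among these. The Igf2bp3 and Gabbr2 peaks are printed on the gene's strand, again with CpG in capitals, to show the open DNA beside the closed promoters above.
Igf2bp3 body peak: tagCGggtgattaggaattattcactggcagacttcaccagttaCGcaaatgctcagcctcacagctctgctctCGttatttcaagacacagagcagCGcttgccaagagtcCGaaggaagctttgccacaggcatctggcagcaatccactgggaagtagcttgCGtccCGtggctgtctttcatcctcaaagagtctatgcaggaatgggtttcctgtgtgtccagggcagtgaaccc
Gabbr2 body peak: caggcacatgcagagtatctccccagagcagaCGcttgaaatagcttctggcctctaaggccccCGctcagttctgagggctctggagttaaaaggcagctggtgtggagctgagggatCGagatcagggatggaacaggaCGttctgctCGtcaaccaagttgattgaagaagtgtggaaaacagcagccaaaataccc
These open stretches are poor in CpG where the closed promoters of the same genes are rich. The contrast is no finding, since the promoters were chosen for a ratio of at least 0.6. Only 11.9% and 13.7% of the body peaks of closed genes reached that ratio. The peaks are also far shorter than the 2 kb promoter window. The Igf2bp3 peak has 7 CpGs in 240 bases, a ratio of 0.430, where the promoter window of the gene has 0.905. The Gabbr2 peak has 5 in 200 bases, a ratio of 0.361, where the promoter window has 0.798. The Gabbr2 peak holds the myogenic E-box, and the Igf2bp3 peak holds none of the 6 motifs searched in body peaks, the others being the MEF2 site CTAAAAATA and the ETS and SP/KLF motifs above.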

How the data were processed

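The deposited files comprise an inclusive and a strict peak list, called sites and footprints for each of 2 samples in 1 group, on mm10. Column 7 of the authors' deposited peak lists is a signal whose scale is not stated, so it was ranked within each sample. The site files list single bases with a p-value type column that is a false discovery rate under 0.05, as deposited by the authors, and the same column of the footprint files is a constant threshold of 0.01. The aligner, the peak caller and their versions are not given in the sources used here. The 2 alleles of the hybrid were not separated.

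The inclusive list, with sites under a rate of 0.05, was used, and the strict list (under 0.001) was an alternative. From GENCODE M21 came 21911 protein-coding genes, with 1 record kept per symbol, and the start sites of their coding transcripts. CpG ratios, GC content, motifs and repeated 31-base words (either strand) were computed from the mm10 reference sequence with numpy 2.4.6. An island-like stretch is a run of 200 bp windows in steps of 10 bp with at least 50% GC and a CpG ratio of 0.6. An overlap needed 1 bp. Motifs were counted on both strands, and a motif that contains another counts for both. Intervals are exact (Clopper-Pearson, scipy 1.17.1) and cover counting error only. Counting steps were checked on simulated data.

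Genes named in the text follow a rule. They are, in each of 38 lists, up to 2 genes richest in shared body peaks and the longest gene without any, and over all genes the top 10 by shared body peaks, by their density, by CpG ratio, by distance to a peak, by promoter bases past the rate and by strongest body peak, with 3 genes on either side of each threshold. Members of the lists are also named beside their counts. Some genes and 1 sequence that the rule names are not reported here. For the printed promoter of highest CpG ratio Gm47283 was passed over, since its window is wholly repeated. The genes, lists and rules were chosen with earlier results of these data known. With 1 group of 2 samples, no difference was tested and no p-value was computed.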

Additional observations from a re-analysis of the deposited data

How the results depend on the processing

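The count of closed CpG-rich promoters (288) depended on where CpG-rich begins and on the peak list. It was 531 at a CpG ratio of 0.5, 65 at 0.75, 11 at 0.9, 484 with CpG counted over 1 kb, and 520 with the strict list, which holds fewer peaks. All 288 genes are among those 520, which must hold if each strict peak lies in an inclusive one and so is no check. Leaving out a replicate gave 345 to 398. Windows of 500 and 2500 bp gave 340 and 222, and leaving out windows with over 50% repeated words, an alternative chosen after seeing the data, gave 262. The share with a body peak in both samples (41.7%) was 47.9% with 2 kb and 65.3% with 10 kb added on both sides, 30.2% with the strict list and 33.3% with equal numbers of top peaks, and 45.5 to 51.4% when a replicate was left out. Of 34 lists 25 lay above the share of all CpG-rich genes, and at a ratio of 0.75 12 of 22 did. The share of genes with a promoter base past the rate, a mean of 7.64% over both samples, was 0.694% at a rate of 0.01 and at 0.001, 5.03% in a window of 500 bp, and 7.64% when either replicate was left out. No paired analysis was possible because there is only 1 group. Depth is unknown, so a missing peak may be a signal below detection.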

Other observations

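Body peaks of 3 closed genes, chosen after their values were seen, were far more numerous in replicate 2, although that sample has the shorter list. Zfp618, a zinc finger gene, had 38 in replicate 2 and 10 in replicate 1. Of the 38, 33 overlapped no peak of replicate 1, and these had a median signal of 0.140 over a span of 82.6 kb, while the 5 shared ones had 0.866. Apba2, an adaptor protein of neurons, had 14 and 4, and 12 of its peaks in replicate 2 were unshared with a median signal of 0.123. St14, a membrane serine protease of epithelia, had 10 and 1, and its 10 unshared peaks lay within 4.05 kb with a median of 0.134. All 3 medians are below the median of 0.760 over all peaks of replicate 2.

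Closed CpG-rich promoters made up 6.96% of the CpG-rich promoters of the X chromosome (11 of 158), the highest share of any chromosome but Y, where 1 of 2 was closed, and 2.13% on chromosome 8 (9 of 422), the lowest. Over all CpG-rich genes the share was 3.83%, and chromosomes 18, 6 and 19 had 5.78%, 5.73% and 5.53%. Differences between chromosomes were not tested. Of the 11 on X, Nudt11 and Zxdb have repeated windows. Several families named alike were closed as a whole or nearly so, a grouping by symbol made after the values were seen. They include both CpG-rich genes of Cdx, Neurog, Foxb, Ovol, Skor and Csmd. In Dmrt, Grik, Bhlhe, Entpd, Flt, Lrfn, Megf, Oxct and Tdrd it was 2 of 3. The closed genes of Entpd and Oxct have repeated windows. Pcdha, whose records overlap, had 6 of 7. Families of like size with none closed are not given here, so these names carry no share. The imprinted genes Nnat, Zdbf2 and Dlk1, also picked after their values were seen, were among the closed. Imprinted genes were not counted as a list, so the closed share among them is not known here. Nnat had 1 body peak in each sample, at the same place, 1183 bp from the start site, and Zdbf2 and Dlk1 had none.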
